A study of Homo sapiens with 12 samples.

Results

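The genes described here are 10 histone and DNA modifiers, most of which are recurrently mutated in lymphoma or other blood cancers. They are KMT2D, KMT2C, KMT2A, CREBBP, EP300, KDM6A, SETD2, TET2, DNMT1 and DNMT3A. They were taken by symbol, and all 10 were found, each in 1 row, among the 60707 genes of the count table; all 10 passed the filter on low counts that left 17859 genes for testing. RNA came from Raji, a line established from a human Burkitt lymphoma, set up as an auxin-inducible degron of SMARCA4, also called BRG1, the ATPase of the SWI/SNF remodelling complex. The 4 groups of 3 libraries were GFP-high with DMSO, the vehicle; GFP-high with FX1, a small molecule that inhibits the transcriptional repressor BCL6; GFP-low with DMSO; and GFP-low with FX1, all at 24 h and all with the genotype label Smarca4+/+. The design text asks what FX1 does once SMARCA4 protein is degraded, but the labels do not say how the GFP gate relates to SMARCA4, so groups are named by gate and treatment. The libraries are bulk RNA of a single cell line, so fewer cells with a transcript and less transcript per cell cannot be told apart, and mutations of these genes in Raji were not examined.

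The proteins add or remove chemical marks on chromatin. KMT2A, KMT2C and KMT2D methylate histone H3 lysine 4, KMT2C and KMT2D mainly at enhancers, in complexes that also hold the H3 lysine 27 demethylase KDM6A. CREBBP and EP300 acetylate histones at enhancers and promoters, and in germinal centre B cells CREBBP opposes the silencing of enhancers by BCL6 and its corepressors. SETD2 trimethylates H3 lysine 36 over transcribed genes. DNMT1 copies DNA methylation after replication, DNMT3A adds it to unmethylated sites, and TET2 oxidises it. KMT2D, CREBBP, EP300 and TET2 are tumour suppressors that are often inactivated in germinal centre lymphomas.

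In hg38 the methyltransferase genes for H3 lysine 4 lie apart, KMT2D (ENSG00000167548.17) on chromosome 12 from 49018978 to 49060794, KMT2C (ENSG00000055609.21) on chromosome 7 from 152134922 to 152436644 and KMT2A (ENSG00000118058.23) on chromosome 11 from 118436490 to 118526832. The acetyltransferase genes are CREBBP (ENSG00000005339.15) on chromosome 16 from 3725054 to 3880713 and EP300 (ENSG00000100393.14) on chromosome 22 from 41092592 to 41180077. The other histone modifiers are KDM6A (ENSG00000147050.17) on chromosome X from 44873188 to 45112779 and SETD2 (ENSG00000181555.21) on chromosome 3 from 47016429 to 47164113, and the DNA modifiers are TET2 (ENSG00000168769.14) on chromosome 4 from 105145875 to 105279816, DNMT1 (ENSG00000130816.17) on chromosome 19 from 10133342 to 10231286 and DNMT3A (ENSG00000119772.18) on chromosome 2 from 25227855 to 25342590. All are protein-coding, and the counts cover their exons, untranslated ones included.

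The bases upstream of the transcription start are shown for KMT2D and CREBBP, the pair of members with the largest rise with FX1, and for TET2, a member that fell. They are RefSeq sequence (GRCh38.p14), 5′ to 3′ on the gene's own strand and ending at the start, or just short of it for CREBBP, where 13 bases annotated as exon were left off. Capitals mark matches to the motifs described next.

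KMT2D, chr12:49060795-49061044, minus strand: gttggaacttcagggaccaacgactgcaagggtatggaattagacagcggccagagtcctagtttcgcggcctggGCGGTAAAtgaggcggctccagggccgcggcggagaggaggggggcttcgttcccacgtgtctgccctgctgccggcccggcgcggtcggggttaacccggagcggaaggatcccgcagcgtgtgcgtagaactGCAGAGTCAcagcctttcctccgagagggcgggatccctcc

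CREBBP, chr16:3880727-3880963, minus strand: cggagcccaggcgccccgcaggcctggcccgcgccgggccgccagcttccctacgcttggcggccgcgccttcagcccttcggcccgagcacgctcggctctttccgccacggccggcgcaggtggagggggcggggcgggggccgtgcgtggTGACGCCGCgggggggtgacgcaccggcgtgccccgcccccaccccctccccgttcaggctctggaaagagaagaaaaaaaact

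TET2, chr4:105145625-105145874, plus strand: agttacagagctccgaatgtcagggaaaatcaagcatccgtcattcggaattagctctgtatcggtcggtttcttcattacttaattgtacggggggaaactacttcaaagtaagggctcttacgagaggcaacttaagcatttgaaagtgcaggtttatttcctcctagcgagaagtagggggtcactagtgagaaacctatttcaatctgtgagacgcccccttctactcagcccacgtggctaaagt

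The GC content of these stretches was 65.6% for KMT2D, 75.9% for CREBBP and 45.6% for TET2, with 23, 31 and 10 CpG sites. All 10 members had RefSeq windows of 250 bases before a start, 17 windows in total because CREBBP, DNMT3A and TET2 have several starts. The median GC content of the 17 was 72.8%, against 58.0% for all 35116 windows. The further window of TET2, inside its annotated exons, had 72.8% GC and 34 CpG sites, and that of CREBBP 84.0% and 46. On both strands, the letters TTCCTNGAA (a BCL6 motif) were in 0 of the 17 member windows and in 1.367% of all windows. The letters TGACNNNGC, the core of the antioxidant response element bound by NRF2, were in the KMT2D window, 41 to 33 bases before the start, and in the CREBBP window, 97 to 89 bases before it; 10.907% of all windows hold them. The letters TTTNNCGC, a loose form of the E2F motif that allows any base at N, were in the KMT2D window, 175 to 168 bases before the start. They were in 5.918% of all windows. These matches overlap no other match and describe the letters alone.

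Levels are given as CPM, counts relative to the library total after TMM scaling, and a change was called where edgeR's quasi-likelihood test gave an adjusted p (Benjamini-Hochberg, over all genes tested) under 0.05. Total gene counts lay between 20454028 and 42556661 per library. The labels do not state whether the 3 libraries of each group are separate cultures, so the p-values reflect only how far these libraries vary, and that variation may be technical. It was small, with a common biological coefficient of variation of 1.67%, and changes of a few percent passed the test, so counts of called genes are to be read against the share of all genes called. The share of mitochondrial counts in GFP-high cells was 7.84 to 7.91% with DMSO and 4.23 to 4.32% with FX1, and in GFP-low cells 4.72 to 4.84% with DMSO and 5.05 to 5.13% with FX1, and its part in the differences was not tested. All 7 B-cell markers passed the filter, with summed levels of 2690 to 2710, 2250 to 2270, 2400 to 2420 and 1820 to 1830 CPM in the same order. Of 8 T and NK markers 4 passed the filter, with sums between 2.52 and 7.51 CPM over all libraries and CD8A at 0. Of 8 myeloid markers 3 passed, with sums of 2 to 6.46 CPM, highest in GFP-low FX1, and S100A8 at 0. Of 6 epithelial and stromal markers COL1A1 alone passed, with sums of 8.15 to 17.3 CPM, highest in GFP-low FX1, and KRT18 at 0. In GFP-high cells SMARCA4 RNA was at 380.6 ± 3.77 CPM with DMSO and 388.5 ± 2.54 CPM with FX1 (SD, n = 3), and in GFP-low cells at 395.1 ± 4.99 and 456 ± 4.04 CPM. BCL6 RNA was lower with FX1 in both gates, from 399.8 ± 1.07 to 199.1 ± 3.63 CPM in GFP-high and from 338.7 ± 8.87 to 217.7 ± 7.52 CPM in GFP-low cells.

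Levels of the 10 genes differed by far more between genes than between groups. Per kilobase of the longest annotated transcript (RPKM) in GFP-high DMSO, DNMT1 was highest at 99.8 ± 0.944 (SD, n = 3). KMT2C (33.0 ± 0.142) and SETD2 (32.9 ± 0.232) followed, with libraries that overlapped. EP300 (24.3 ± 0.395) and KMT2A (23.9 ± 0.0951) came next and overlapped as well. KMT2D (11.3 ± 0.0918) and CREBBP (10.2 ± 0.485) did not overlap. KDM6A was at 7.91 ± 0.221, TET2 at 4.38 ± 0.213 and DNMT3A at 0.167 ± 0.0226 RPKM. The DNMT3A value rests on 30 to 55 reads per library. Gene length matters to this order: per kilobase of all annotated exons, DNMT1 and SETD2 led at 35.1 and 26.2 RPKM in GFP-high DMSO, while KMT2C, at 10.45, ranked below EP300 and KMT2A, and KDM6A, at 1.69, ranked below TET2 at 2.71. Because the strand setting and annotation are not given in the sources used here, reads from overlapping genes may be included; for KMT2A another gene on the same strand covers 17.9% of exon bases, for KMT2D overlapping genes cover 3.63%, and for the other 8 the share was 0.915% or less. KMT2C has near-identical partial copies elsewhere in the genome, and its values are uncertain for that reason.

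**Figure D1:**
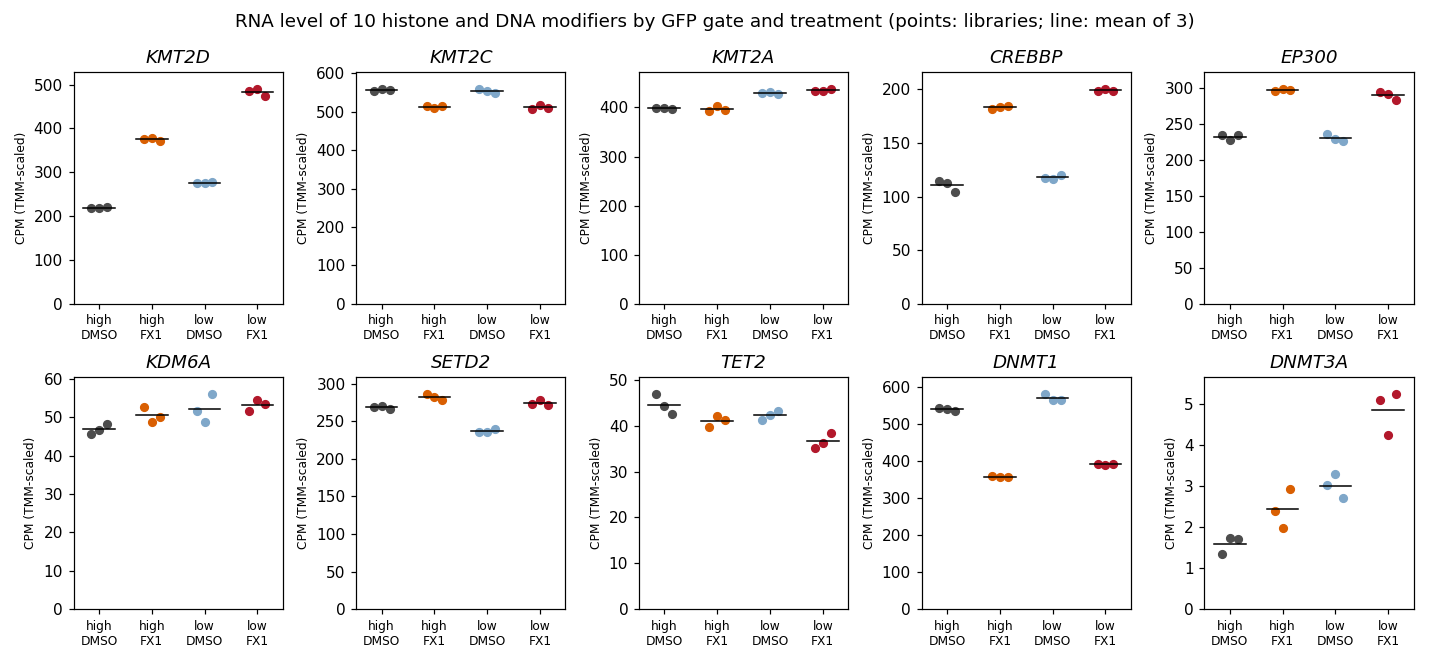
RNA level of each of the 10 genes in TMM-scaled CPM (y axis, from 0) for the 4 groups (x axis); points are libraries and lines the mean of 3. KMT2D, CREBBP and EP300 are higher and DNMT1 is lower in the FX1 libraries of both gates, and DNMT3A, lowest of all, is highest in GFP-low FX1.

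The first question was how FX1 changed these genes in each gate. In GFP-high cells 6 members rose, 3 fell and 1 did not pass the test, against 68.4% of all genes called (33.8% higher, 34.6% lower). In GFP-low cells 5 rose, 3 fell and 2 did not pass, against 68% of all genes called (33.7% higher, 34.3% lower). KMT2D, CREBBP, EP300, SETD2 and DNMT3A rose in both gates, as did 26.2% of all genes, and KMT2C, TET2 and DNMT1 fell in both, as did 26.5%. The members' median change was 0.09 in GFP-high and 0.12 in GFP-low cells (log2), and that of all genes -0.01 in both. The median change without sign was 0.24 and 0.27 for the members, against 0.41 in both gates for all genes, with KMT2D, CREBBP, DNMT3A and DNMT1 above that value in both gates and the other members below it. KMT2D and CREBBP alone passed a test against a 1.5-fold floor, in both gates, where 20.6% and 20.2% of all genes passed it. Treated and untreated libraries did not overlap for 9 members in GFP-high cells, against 70.2% of all genes, and for 9 in GFP-low cells, against 69.6%.

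**Figure D2:**
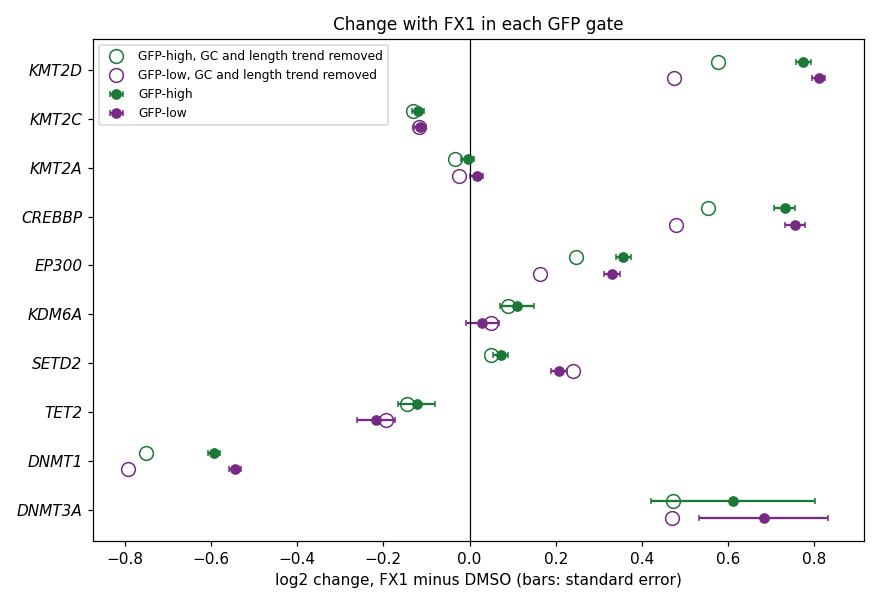
Change of each gene with FX1 (x axis, log2 of FX1 over DMSO) in GFP-high (green) and GFP-low (purple) cells; filled points carry standard errors and open points are the values after a trend on GC content and length was removed. The rises of KMT2D, CREBBP, EP300 and DNMT3A are smaller and the fall of DNMT1 is larger in the open points, and each keeps its direction.

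KMT2D, an H3 lysine 4 methyltransferase often mutated in follicular lymphoma, gained more than any other member in absolute CPM. Its libraries stood at 217.5, 218.8 and 221 CPM in GFP-high DMSO and at 376, 377.2 and 372.2 CPM in GFP-high FX1. In GFP-low cells they stood at 276.1, 275.1 and 276.7 CPM with DMSO and at 486.3, 489.7 and 474 CPM with FX1. None of the 4 groups overlapped with another, and GFP-low FX1 was the highest. The rise with FX1 was 0.78 ± 0.017 (log2 ± SE; 1.71-fold; adjusted p = 2.8e-119, edgeR quasi-likelihood test) in GFP-high cells and 0.81 ± 0.016 (1.75-fold; adjusted p = 1.8e-128, edgeR) in GFP-low cells. Both rises were smaller, 0.58 and 0.48, once a trend on transcript GC content and length over all genes was taken out.

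KMT2C, the paralogue of KMT2D, moved slightly the other way. It was at 554.5, 559.2 and 557.8 CPM in GFP-high DMSO and at 515, 509.8 and 514.7 CPM with FX1, and at 558.1, 552.9 and 550.2 CPM in GFP-low DMSO and 506.8, 518.3 and 509.6 CPM with FX1. Within each gate the treated libraries all lay below the untreated ones. The falls were small, at -0.12 ± 0.014 (adjusted p = 6.9e-15, edgeR) in GFP-high and -0.12 ± 0.014 (adjusted p = 4.3e-14, edgeR) in GFP-low cells. KMT2A, the methyltransferase rearranged in acute leukaemias, did not pass the test in either gate. It was at 399.7, 398.1 and 396.5 CPM in GFP-high DMSO against 393.2, 403.9 and 394.1 CPM with FX1, with overlapping libraries. In GFP-low cells it was at 429.8, 431.6 and 428.3 CPM with DMSO and 433.7, 434.4 and 437.6 CPM with FX1, which did not overlap. The 95% interval of its log2 change was -0.04 to 0.03 in GFP-high and -0.02 to 0.05 in GFP-low cells. Without the GC and length trend the GFP-high value was -0.03 and just passed the threshold (adjusted p = 0.049, edgeR).

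Within each library, counts of KMT2D over counts of KMT2C gave 0.393 ± 0.0027 with DMSO and 0.731 ± 0.0084 with FX1 in GFP-high cells, and 0.498 ± 0.0041 and 0.945 ± 0.015 in GFP-low cells (SD, n = 3). The ratio was higher with FX1 in each gate, and the libraries of the 4 groups did not overlap. A ratio within a library does not depend on scaling, but it shows unequal change and not which gene moved. It also keeps the trend on GC content and length, as KMT2D has 59.1% GC and KMT2C 45.0%. Without that trend the gate difference under FX1 was 0.03 (log2) for KMT2D and 0.03 for KMT2C, neither past the threshold. With 3 libraries against 3, an exact permutation test cannot go below p = 0.10, and none is given.

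**Figure D3:**
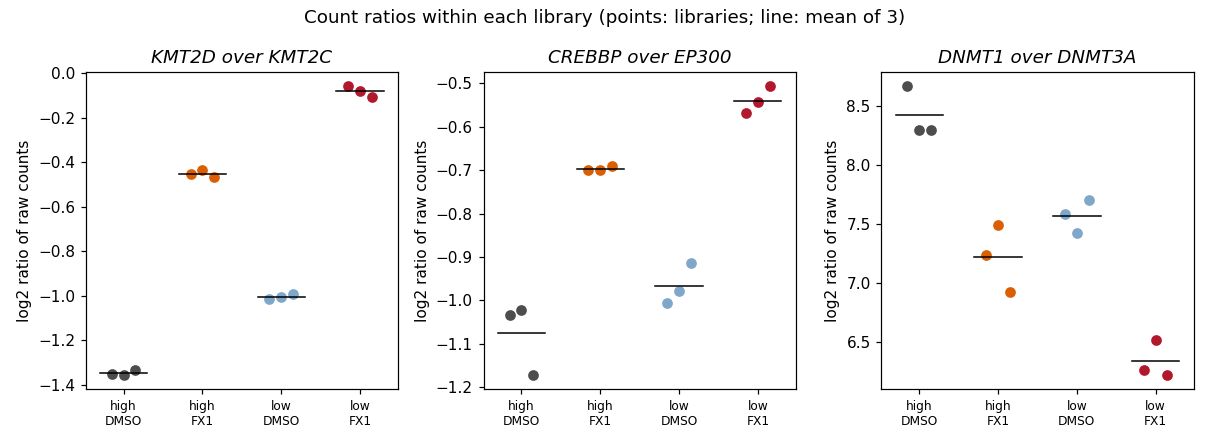
Log2 ratio of raw counts of a pair of related genes within each library (y axis) for KMT2D over KMT2C, CREBBP over EP300 and DNMT1 over DNMT3A, by group (x axis); points are libraries, lines the mean of 3, and the y axes do not start at 0. The first and middle ratios are higher and the last lower in the FX1 libraries of each gate.

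Of the acetyltransferases, CREBBP rose more than its paralogue EP300. CREBBP was at 114.4, 112.3 and 104.5 CPM in GFP-high DMSO and at 182, 183.8 and 184.6 CPM in GFP-high FX1, and at 117.7, 116.6 and 120.1 CPM in GFP-low DMSO and 198.7, 200.4 and 198.9 CPM in GFP-low FX1. All FX1 libraries lay above all DMSO libraries. Its rise was 0.73 ± 0.024 (1.66-fold; adjusted p = 1.9e-84, edgeR) in GFP-high and 0.76 ± 0.023 (1.69-fold; adjusted p = 2.4e-89, edgeR) in GFP-low cells. EP300 was at 234.1, 228.1 and 235.1 CPM in GFP-high DMSO and 295.7, 298.6 and 297.7 CPM in GFP-high FX1, and at 236.3, 229.8 and 226.3 CPM in GFP-low DMSO and 294.7, 292.2 and 282.7 CPM in GFP-low FX1. Here too the treated libraries all lay above the untreated ones. The rise of EP300 was 0.36 ± 0.018 (1.28-fold; adjusted p = 1.9e-51, edgeR) in GFP-high and 0.33 ± 0.018 (1.26-fold; adjusted p = 5.5e-47, edgeR) in GFP-low cells. After removal of the GC and length trend CREBBP rose by 0.55 and 0.48 and EP300 by 0.25 and 0.16. The ratio of CREBBP to EP300 counts was 0.475 ± 0.027 with DMSO and 0.617 ± 0.0025 with FX1 in GFP-high cells, and 0.512 ± 0.017 and 0.688 ± 0.015 in GFP-low cells.

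KDM6A, the X-linked demethylase of the KMT2C and KMT2D complexes, changed little. Its libraries were at 45.66, 46.72 and 48.26 CPM in GFP-high DMSO, 52.71, 48.81 and 50.03 CPM in GFP-high FX1, 51.77, 48.69 and 56.05 CPM in GFP-low DMSO, and 51.61, 54.46 and 53.62 CPM in GFP-low FX1. Treated and untreated libraries did not overlap in GFP-high cells and overlapped in GFP-low cells. The rise in GFP-high cells was 0.11 ± 0.04 (adjusted p = 0.011, edgeR), and it missed the threshold without GFP-high DMSO replicate 1 or without GFP-high FX1 replicate 1. In GFP-low cells the value was 0.03 ± 0.039 (adjusted p = 0.51, edgeR). SETD2, the H3 lysine 36 methyltransferase, was at 268.7, 270.6 and 266.8 CPM in GFP-high DMSO, 286.1, 283.1 and 278.6 CPM in GFP-high FX1, 236.5, 236.2 and 240.1 CPM in GFP-low DMSO and 273.2, 278 and 271.9 CPM in GFP-low FX1. The GFP-low DMSO libraries were the lowest of the 12. SETD2 rose with FX1 by 0.07 ± 0.017 (adjusted p = 9.5e-05, edgeR) in GFP-high and by 0.21 ± 0.018 (adjusted p = 9e-25, edgeR) in GFP-low cells.

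The DNA modifiers moved in different directions. DNMT1, the maintenance methyltransferase, was at 544.1, 541.3 and 534.2 CPM in GFP-high DMSO and 360.6, 356.3 and 356.5 CPM in GFP-high FX1, and at 580.1, 565.2 and 565.2 CPM in GFP-low DMSO and 392.7, 388.8 and 391.5 CPM in GFP-low FX1. It had the largest fall of the 10, with no overlap between any of the groups. The log2 change was -0.59 ± 0.015 (1.51-fold lower; adjusted p = 1.7e-107, edgeR) in GFP-high and -0.54 ± 0.014 (1.46-fold lower; adjusted p = 6.7e-101, edgeR) in GFP-low cells. DNMT1 did not pass the 1.5-fold floor in these fits, but it did once the GC and length trend was removed, at -0.75 and -0.79. In that fit it was the only member past the floor, in both gates, and KMT2D and CREBBP were not.

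DNMT3A, the de novo methyltransferase, was near the lower end of what these libraries resolve. It was at 1.339, 1.721 and 1.699 CPM in GFP-high DMSO, 2.392, 1.981 and 2.933 CPM in GFP-high FX1, 3.018, 3.299 and 2.708 CPM in GFP-low DMSO and 5.105, 4.239 and 5.233 CPM in GFP-low FX1, from 30 to 230 reads per library. Treated libraries lay above untreated ones in each gate. It rose by 0.61 ± 0.19 (1.53-fold, adjusted p = 0.0023, edgeR) in GFP-high and 0.68 ± 0.15 (1.61-fold, adjusted p = 1.9e-05, edgeR) in GFP-low cells. Both rises were smaller after removal of the GC and length trend, at 0.47 in each gate (adjusted p = 0.02 and 0.0037, edgeR). DNMT1 counts were 345 ± 53 times DNMT3A counts in GFP-high DMSO and 151 ± 29 times in GFP-high FX1, and 191 ± 19 and 81.2 ± 9.2 times in GFP-low DMSO and GFP-low FX1. TET2, the dioxygenase, was at 46.86, 44.28 and 42.57 CPM in GFP-high DMSO, 39.63, 42.08 and 41.18 CPM in GFP-high FX1, 41.35, 42.25 and 43.2 CPM in GFP-low DMSO and 35.14, 36.16 and 38.47 CPM in GFP-low FX1. Treated libraries lay below untreated ones in each gate, by a narrow margin in GFP-high cells. The change was -0.12 ± 0.043 (adjusted p = 0.0088, edgeR) in GFP-high and -0.22 ± 0.044 (adjusted p = 4.3e-06, edgeR) in GFP-low cells; the former missed the threshold without GFP-high DMSO replicate 1 or without GFP-high FX1 replicate 1.

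GC content moved with the treatment across all genes, and the members differ in it. Genes were put into quintiles by the GC content of their longest transcript; the median FX1 change went from -0.09 in the lowest quintile (up to 40.7% GC) to 0.21 in the highest (from 56.9%) in GFP-high cells, and from -0.27 to 0.39 in GFP-low cells. KMT2D, in the highest quintile at 59.1%, rose by more than its quintile's median, and CREBBP (55.8%), EP300 (52.0%) and DNMT3A (53.7%) rose by more than the median of the next quintile, 0.06 in GFP-high and 0.155 in GFP-low cells (log2). DNMT1, in that same quintile at 55.4%, fell. KMT2C (45.0%) and TET2 (43.1%) lay in the quintile whose median was -0.10 in GFP-high and -0.13 in GFP-low cells, together with KDM6A (43.5%) and SETD2 (42.7%), which did not fall. The part of GC content in the members' changes was not tested beyond removing this trend.

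**Figure D4:**
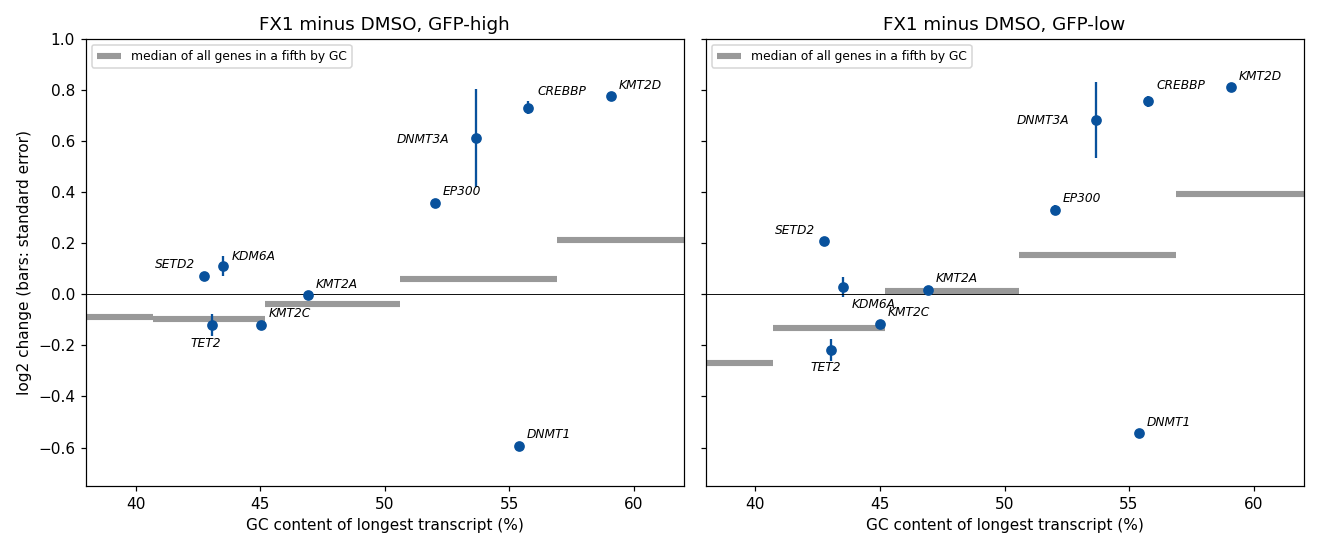
Change with FX1 (y axis, log2 of FX1 over DMSO, with standard errors) against GC content of the longest transcript (x axis, %) for the 10 genes, in GFP-high (left) and GFP-low (right) cells; grey bars are medians of all genes in each quintile by GC content, cut at the edges of the plot. KMT2D, CREBBP, DNMT3A and EP300 lie above and DNMT1 lies below the grey bar of their quintile in both panels.

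The second question was how the gates differed under the same treatment. Under DMSO 6 members were higher and 1 lower in GFP-low than in GFP-high cells and 3 did not pass, against 46.1% of all genes called (21.7% higher, 24.4% lower). Under FX1 5 were higher, 2 lower and 3 did not pass, against 56.9% called (30.2% higher, 26.7% lower). The members' differences were mostly small, with a median without sign of 0.10 and 0.12, against 0.22 and 0.31 for all genes. The libraries of the gates did not overlap for 7 members under DMSO, against 51.6% of all genes, and for 8 under FX1, against 61.1%. At a 1.5-fold floor (edgeR's glmTreat) 0 members passed under DMSO, where 1.11% of all genes passed, and DNMT3A alone passed under FX1, where 4.08% did. At an unadjusted p under 0.05 in place of the adjusted one, 1 member (DNMT3A) was past the floor under DMSO. Leaving out any 1 of the 3 GFP-high DMSO libraries, which are not part of the comparison under FX1, lowered the values there by a similar amount for each gene, through the scaling and filter shared by all libraries: KMT2A went from 0.13 to 0.09, CREBBP from 0.12 to 0.07, DNMT1 from 0.13 to 0.08 and SETD2 from -0.04 to -0.09. EP300 and KMT2C were then called, with between 6 and 9 members called over all single libraries left out.

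DNMT3A was higher in GFP-low cells by 0.92 ± 0.19 (1.89-fold; adjusted p = 6.6e-06, edgeR) under DMSO and 0.99 ± 0.15 (1.98-fold; adjusted p = 1.4e-09, edgeR) under FX1, and by 0.86 in both after the GC and length trend was removed. KMT2D was higher by 0.33 ± 0.018 (adjusted p = 1.6e-47, edgeR) under DMSO and 0.37 ± 0.015 (adjusted p = 8.4e-65, edgeR) under FX1. These KMT2D values did not hold at that size without the trend, falling to 0.14 under DMSO and to 0.03 (adjusted p = 0.077, edgeR) under FX1. KMT2A was higher by 0.11 ± 0.015 and 0.13 ± 0.015 (adjusted p = 3.3e-11 and 4.4e-16, edgeR), and by 0.11 and 0.12 without the trend. Its libraries in GFP-low cells all lay above those in GFP-high cells under each treatment.

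CREBBP was higher in GFP-low cells by 0.10 ± 0.025 under DMSO (adjusted p = 0.00072, edgeR) and 0.12 ± 0.021 under FX1 (adjusted p = 1.6e-07, edgeR). Without the GC and length trend these became 0.002 (adjusted p = 0.96, edgeR) and -0.07 (adjusted p = 0.0022, edgeR), a change of direction under FX1. The DMSO value also missed the threshold without GFP-high DMSO replicate 3, at 0.06 (adjusted p = 0.062, edgeR). DNMT1 was higher by 0.08 ± 0.014 (adjusted p = 4.5e-07, edgeR) and 0.13 ± 0.015 (adjusted p = 4.3e-15, edgeR), and without the trend the differences were 0.02 (adjusted p = 0.32, edgeR) under DMSO and -0.02 (adjusted p = 0.26, edgeR) under FX1. KDM6A was higher by 0.15 ± 0.041 (adjusted p = 0.0011, edgeR) under DMSO, with libraries that did not overlap, and by 0.10 (adjusted p = 0.071, edgeR) without GFP-low DMSO replicate 3. Under FX1 its difference was 0.07 ± 0.038 (adjusted p = 0.12, edgeR), and without the trend the values were 0.26 and 0.22, both past the threshold.

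**Figure D5:**
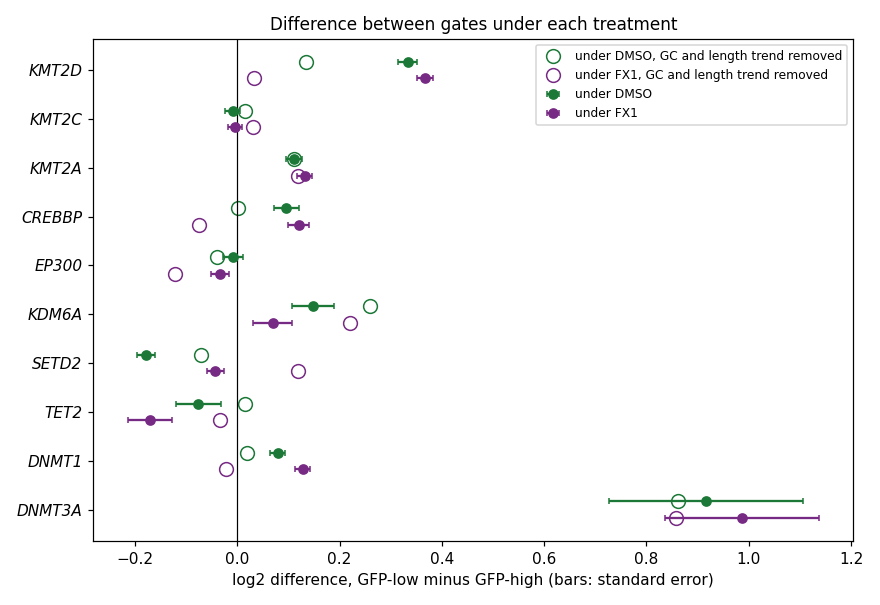
Difference between gates for each gene (x axis, log2 of GFP-low over GFP-high) under DMSO (green) and under FX1 (purple); filled points carry standard errors and open points are the values after the trend on GC content and length was removed. DNMT3A lies furthest to the right, at 0.92 under DMSO and 0.99 under FX1, with both open points at 0.86. For KMT2D, CREBBP, KDM6A, SETD2, TET2 and DNMT1 filled and open points lie apart, and under FX1 those of EP300 do too.

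SETD2 was lower in GFP-low cells under DMSO, at -0.18 ± 0.018 (adjusted p = 2.8e-18, edgeR), with no overlap between gates. Under FX1 the difference was -0.04 ± 0.017 (adjusted p = 0.025, edgeR), again with no overlap, and 0.12 (adjusted p = 1.2e-09, edgeR) in the opposite direction without the GC and length trend; under DMSO it was then -0.07. The SETD2 call under FX1 was also lost without either of GFP-high FX1 replicates 1 and 2 or GFP-low FX1 replicates 1 and 3. TET2 was lower under FX1, at -0.17 ± 0.043 (adjusted p = 0.00028, edgeR), and had -0.03 (adjusted p = 0.57, edgeR) without the trend; under DMSO it had -0.08 (adjusted p = 0.16, edgeR). KMT2C (-0.01 under each treatment) and EP300 (-0.01 under DMSO and -0.03 under FX1) did not pass the test. EP300 under FX1 was -0.12 (adjusted p = 6.2e-10, edgeR) without the trend.

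The third question was whether the response to FX1 differed between gates. The interaction term was called for 1 member, SETD2, against 31.3% of all genes (14.8% higher, 16.5% lower), and for 0 members at the 1.5-fold floor (glmTreat), where 0.846% of all genes passed. At an unadjusted p under 0.05 the members past that floor were 0 as well. SETD2 rose with FX1 by 0.14 ± 0.025 more in GFP-low than in GFP-high cells (log2; adjusted p = 1.2e-06, edgeR), and by 0.19 (adjusted p = 9.8e-11, edgeR) without the GC and length trend; without GFP-high DMSO replicate 1 or 2 it was 0.09 or 0.08 and still called. Without GFP-high DMSO replicate 1 EP300 and TET2 were called as well (3 members), without GFP-high DMSO replicate 3 EP300 (2 members), and without GFP-low DMSO replicate 1 DNMT1 (2 members). For the other 9 the 95% intervals of the difference of log2 changes were -0.02 to 0.09 for KMT2D, -0.04 to 0.05 for KMT2C, -0.03 to 0.07 for KMT2A, -0.05 to 0.10 for CREBBP, -0.08 to 0.03 for EP300, -0.21 to 0.05 for KDM6A, -0.24 to 0.05 for TET2, 0.002 to 0.10 for DNMT1 (adjusted p = 0.054, edgeR) and -0.49 to 0.64 for DNMT3A. In this fit a difference in response above 0.1 in size was outside the interval for KMT2D, KMT2C, KMT2A, CREBBP, EP300 and DNMT1. For DNMT3A the interval was wide. These intervals leave out shifts in scaling, so they do not exclude a difference of that size. Without GFP-high DMSO replicate 1 the median shift over all genes was -0.048 (log2), and with 1 library left out EP300 reached -0.081. Without the trend the difference for KMT2D was -0.10 (adjusted p = 3e-04, edgeR) and for EP300 -0.08 (adjusted p = 0.011, edgeR). SMARCA4 and BCL6 RNA both differed in response, by 0.18 ± 0.021 (adjusted p = 1.5e-13, edgeR) and 0.36 ± 0.025 (adjusted p = 6.2e-32, edgeR).

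Over the 4 groups the range of the mean log2 level was widest for DNMT3A (1.58), KMT2D (1.14) and CREBBP (0.85), followed by DNMT1 (0.67), EP300 (0.37), TET2 (0.28), SETD2 (0.25), KDM6A (0.18), KMT2A (0.13) and KMT2C (0.12). Of all genes tested, 87.4% had a narrower range than DNMT3A, 74.7% than KMT2D and 59.5% than CREBBP, but 1.61% than KMT2A and 1.32% than KMT2C, which were among the steadiest genes of these libraries. The genes whose centred log2 levels over the 12 libraries were most like those of KMT2D were RAPGEF1, TSC2 and SLC3A2, with root mean square differences of 0.0265, 0.0354 and 0.0362. Those most like CREBBP were MEPCE, BRMS1 and UNC93B1 (0.0334, 0.0349 and 0.0408), and those most like DNMT3A were RGS14, IGHA1 and the pseudogene PKD1P3 (0.152, 0.165 and 0.185). Among the members themselves the closest pair was KMT2A with KDM6A (0.0708), then KMT2C with TET2 (0.0818). These genes had narrow ranges, of 0.12 to 0.28, and the measure is small for any genes that change little. The furthest pair was DNMT1 with DNMT3A (0.752). These are descriptions over libraries that share groups and scaling.

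Genes that work with the members were described from lists by role. Of 14 partners in H3 lysine 4 methylation, 7 rose and 3 fell with FX1 in GFP-high cells and 7 rose and 2 fell in GFP-low cells, with medians of 0.09 and 0.13 (log2). As for all the lists that follow, 68.4% of all genes were called in GFP-high cells (33.8% higher, 34.6% lower) and 68% in GFP-low cells (33.7% higher, 34.3% lower), and the lists' counts are descriptions beside these shares. SETD1B, the catalytic subunit of another complex of this kind, rose by 1.33 ± 0.032 (adjusted p = 1.4e-110, edgeR) and 1.51 ± 0.03 (adjusted p = 5e-126, edgeR). MEN1, which encodes menin, the partner that brings KMT2A to chromatin, rose by 0.94 ± 0.041 (adjusted p = 1.7e-60, edgeR) and 1.05 ± 0.039 (adjusted p = 1.9e-73, edgeR). SETD1A, the paralogue of SETD1B, rose by 0.61 ± 0.031 (adjusted p = 1.4e-51, edgeR) in GFP-high and 0.88 ± 0.03 (adjusted p = 2.8e-80, edgeR) in GFP-low cells. PSIP1 (LEDGF), which binds menin, fell alike in both gates. Its log2 change was -0.75 ± 0.02 (adjusted p = 2e-96, edgeR) in GFP-high and -0.74 ± 0.022 (adjusted p = 5.7e-88, edgeR) in GFP-low cells. The 4 shared core subunits differed, as WDR5 rose by 0.22 and 0.37 while RBBP5, ASH2L and DPY30 did not pass the test in either gate; they were picked out after their values were seen.

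Of 5 H3 lysine 4 and lysine 27 demethylases, 3 rose and 2 fell in GFP-high cells and 3 rose and 1 fell in GFP-low cells. KDM6B, the paralogue of KDM6A, rose by 0.27 ± 0.025 (adjusted p = 1.4e-22, edgeR) and 0.52 ± 0.024 (adjusted p = 4.2e-58, edgeR). KDM1A, also called LSD1, fell by 0.24 ± 0.019 in GFP-high cells (log2; adjusted p = 1.2e-28, edgeR), and KDM5B, an H3 lysine 4 demethylase, by 0.27 ± 0.027 (adjusted p = 2.5e-18, edgeR). KDM5C rose by 0.20 ± 0.025 (adjusted p = 6.4e-14, edgeR) in GFP-high and 0.38 ± 0.024 (adjusted p = 7.7e-39, edgeR) in GFP-low cells. Without the GC and length trend 0 of the 5 rose and 2 fell in GFP-high cells, and 2 rose and 2 fell in GFP-low cells. In that fit 5828 of 17557 genes were called higher and 6104 lower in GFP-high cells (68% called). In GFP-low cells 5866 were called higher and 5606 lower (65.3% called). The FX1 change in GFP-low minus that in GFP-high cells was above 0 and called for 5 of 5, against 14.8% of all genes. Without the trend it was so for 4 of 5, against 2395 of 17557 genes. It was called above and below 0 for 7 and 0 of the H3 lysine 4 partners. For the lists below it was 5 and 0 (acetylation), 7 and 0 (H3 lysine 36) and 1 and 3 (DNA methylation). Without the trend these 4 lists had 2 and 1, 2 and 0, 7 and 1, and 2 and 5. Of all 17557 genes in that fit, 2395 were called above 0 and 2466 below 0, against 14.8% and 16.5% of all genes with the trend kept. Small differences of this kind also depend on scaling. With mitochondrial and very abundant genes left out of the scaling, the median shift over all genes was -0.043 (log2). The share of calls above 0 then went from 47.2% to 36%, and the lists were not tested under that scaling. KDM1A and KDM5B, which fell in GFP-high cells, were closer to 0 in GFP-low cells, at -0.01 (not called) and -0.14.

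Of 11 other acetyltransferases and readers of acetyl-lysine, 6 rose and 2 fell in GFP-high cells and 8 rose and 1 fell in GFP-low cells, with medians of 0.15 and 0.17 (log2) that became -0.03 and 0.07 without the trend. The bromodomain reader BRD2 rose in both gates, by 0.39 ± 0.015 (adjusted p = 9.9e-70, edgeR) and 0.53 ± 0.015 (adjusted p = 5.6e-94, edgeR). KAT6B, an H3 acetyltransferase, fell in both gates. Its log2 change was -0.47 ± 0.028 (adjusted p = 1.4e-41, edgeR) in GFP-high and -0.32 ± 0.028 (adjusted p = 4e-23, edgeR) in GFP-low cells. BRPF1, a scaffold of the KAT6 complexes, rose by 0.26 ± 0.041 (adjusted p = 4.4e-09, edgeR) in GFP-high and 0.46 ± 0.041 (adjusted p = 8.8e-23, edgeR) in GFP-low cells.

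Among 12 genes that write, erase or read H3 lysine 36 methylation, 3 rose and 8 fell in GFP-high cells and 4 rose and 6 fell in GFP-low cells, with medians of -0.19 and -0.13 (log2). The largest falls were those of PHF19, a reader of this mark in the Polycomb complex PRC2, at -1.35 ± 0.033 (adjusted p = 4.8e-107, edgeR) and -1.22 ± 0.032 (adjusted p = 1e-101, edgeR). The demethylase KDM4B changed by -0.87 ± 0.033 (adjusted p = 3.1e-71, edgeR) and -0.59 ± 0.031 (adjusted p = 3.6e-48, edgeR), and the mismatch repair protein MSH6, which reads the mark, by -0.68 ± 0.016 (adjusted p = 2.7e-112, edgeR) and -0.61 ± 0.016 (adjusted p = 5.5e-102, edgeR). SETD2, which makes this mark, rose in the same libraries.

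Of 12 genes of DNA methylation and its reversal, 11 passed the filter; 4 rose and 5 fell in GFP-high cells and 3 rose and 7 fell in GFP-low cells, with medians of -0.12 and -0.17 (log2). IDH2 and IDH1, which make the cosubstrate of TET enzymes, fell by 1.11 ± 0.042 and 0.75 ± 0.029 (log2; adjusted p = 7e-72 and 1.7e-70, edgeR) in GFP-high cells. In GFP-low cells they fell by 1.23 ± 0.04 and 0.81 ± 0.03 (adjusted p = 1.9e-83 and 3.3e-74, edgeR). TET3, the paralogue of TET2, rose by 0.65 ± 0.031 (adjusted p = 1.1e-55, edgeR) and 0.55 ± 0.029 (adjusted p = 1.2e-49, edgeR), opposite to TET2. UHRF1, which guides DNMT1 to replicated DNA, had -0.01 in GFP-high cells and fell by 0.17 ± 0.04 (log2) in GFP-low cells.

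Between gates, 46.1% of all genes were called under DMSO (21.7% higher, 24.4% lower) and 56.9% under FX1 (30.2% higher, 26.7% lower), and the counts of the lists are set beside these shares. Of the 14 H3 lysine 4 partners 5 were higher and 4 lower in GFP-low cells under DMSO, and 9 and 3 under FX1; without the GC and length trend these became 1 and 6, and 3 and 2. PSIP1 was lower in GFP-low cells, at -0.56 under both treatments (adjusted p = 1.1e-72 and 2.4e-66, edgeR). Of the DNA methylation genes 3 were higher and 6 lower under DMSO and 3 and 7 under FX1. MBD2, a reader of methylated DNA, was lower, at -0.41 ± 0.028 (adjusted p = 3.1e-33, edgeR) and -0.45 ± 0.029 (adjusted p = 4.7e-37, edgeR). TET3 was higher by 0.37 ± 0.032 under DMSO (adjusted p = 4.5e-23, edgeR) and 0.27 ± 0.027 under FX1 (adjusted p = 8.7e-19, edgeR). The demethylases numbered 2 higher and 3 lower under DMSO and 2 and 0 under FX1, the acetylation list 2 and 5, then 3 and 1, and the H3 lysine 36 list 4 and 5, then 7 and 3. Without the GC and length trend the demethylases had 1 and 2, then 3 and 0, and the acetylation list 2 and 4, then 3 and 4. The H3 lysine 36 list had 2 and 2, then 7 and 3, and the DNA methylation genes 3 and 4, then 1 and 5. In that fit 40.6% of all genes were called under DMSO and 48.8% under FX1.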

How the data were processed

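RNA was sequenced from 12 libraries of Raji cells, 4 groups of 3, named by GFP gate and treatment as the labels give them. Libraries came from total RNA after ribosomal RNA removal, per the labels' protocols. FastQC, STAR, featureCounts of Subread, R 4.2.1 and hg38 are named in the submitters' processing notes; other versions, the annotation and the strand setting are not given in the sources used here. The deposited table gives raw read counts by gene, summed over exons, and the deposited lengths are summed exon bases, per the file headers. Of 60710 lines 3 were left out because they formed 1 broken record, 0 count columns lacked a sample, and 60695 genes (99.98%) had a symbol.

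Counts were fitted with edgeR 4.0.16 (R 4.3.3): filterByExpr, TMM scaling, a robust quasi-likelihood model with a term for each of the 4 groups, 8 residual degrees of freedom, 5 contrasts and Benjamini-Hochberg adjustment over all 17859 genes at 0.05. Levels are TMM-scaled CPM; RPKM is CPM per kilobase. The fit was tested on simulated data. Within-group pairs of libraries differed by 1.673 to 1.945 times the variance of random read sampling, so no library was counted as a copy. PCR copies were not marked by molecular identifiers, so reads are not independent molecules. The GC and length trend was a spline per library on transcript GC content and length from GENCODE v29, entered as offsets for 17557 of the tested genes (98.3%). The 1.5-fold floor was tested with glmTreat.

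The 10 members and the gene lists were chosen with earlier results of these data known, so their counts are descriptions. All members are named in each contrast, together with SMARCA4 and BCL6. From each list up to 3 called genes with the largest change at a mean log2 CPM of at least 2 could be named, and 3 genes most like each of the 3 members with the widest range; not every gene so chosen is reported here. Other settings were DESeq2 1.42.0, DESeq2 size factors in edgeR, other filters, scaling that leaves out mitochondrial genes and any gene over 1% of a library, a fit to the groups compared alone, the replicate number as a block, and leaving out each library.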

Additional observations from a re-analysis of the deposited data

Results flagged for a closer look

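The response of SETD2 to FX1 differed between the gates by a test of the difference itself. SETD2 rose by 0.07 ± 0.017 (log2 ± SE) in GFP-high cells and by 0.21 ± 0.018 in GFP-low cells, a difference of 0.136 ± 0.025 (adjusted p = 1.2e-06, edgeR interaction term). In the means, GFP-low cells started lower with DMSO, at 238 ± 2.17 CPM against 269 ± 1.9 (SD, n = 3), and the gates were closer with FX1, at 274 ± 3.24 against 283 ± 3.73 CPM. After removal of the GC and length trend the difference was 0.19. In that fit the gates were not closer with FX1, as GFP-low minus GFP-high was -0.07 under DMSO and 0.12 under FX1. With 1 library left out, in the fit that keeps the trend, the difference was as low as 0.084. Of all genes tested 31.3% were called in this comparison, so the call itself is common in these libraries.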

How the results depend on the processing

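Of the calls for the 10 members, KMT2D, CREBBP, EP300, DNMT1 and DNMT3A with FX1 kept their direction and side of the threshold in both gates under every setting tried at the ordinary threshold, the GC and length correction and each left-out library included. Calls of small differences, mainly between gates, moved. The number of members called at the 1.5-fold floor was 2 and 2 for FX1 in GFP-high and GFP-low, 0 and 1 for the gates under DMSO and FX1, and 0 for the interaction (whether the FX1 effect differs by gate), and with the GC and length trend removed as well (chosen after seeing the data) it was 1, 1, 0, 0 and 0. The lower counts than without a floor come with the stricter null; at the same floor, removing the trend took KMT2D and CREBBP out and brought DNMT1 in for FX1 in both gates, and took DNMT3A out for the gates under FX1. Over all genes, those counts were 3674, 3606, 199, 728 and 151, and 3275, 2700, 171, 263 and 114. For the interaction, 3 members were called with at least 50 counts in 3 libraries, 2 with scaling without mitochondrial and very abundant genes, and 3 with the GC and length trend removed, with or without the replicate block; the cause was not tested. Of all genes, 31.3% were called for the interaction in the main fit and 27.7% with the trend removed. In that comparison 47.2% of all genes called were higher, and 36% under the scaling without mitochondrial and very abundant genes. Between gates under FX1, KMT2C reversed to 0.036 with at least 50 counts in 3 libraries, and with the GC and length trend removed CREBBP reversed to -0.074, SETD2 to 0.119 and DNMT1 to -0.021, with the same values at the floor. With the replicate block and the trend removed these were -0.074, 0.118 and -0.022. KMT2D reversed to -0.102 for the interaction, and to -0.103 with the block; the cause was not tested. Leaving out 1 library at a time gave 7 to 9 members called for FX1 in GFP-high, 8 in GFP-low, 6 to 7 and 6 to 9 for the gates under DMSO and FX1, and 1 to 3 for the interaction; 578 single member calls were as in the full fit, 12 were gained and 10 lost. Without the low-count filter TET2 with FX1 in GFP-high missed the threshold (-0.10, adjusted p = 0.059, edgeR). Same-numbered libraries did not deviate together (correlations -0.037 to 0.018, and 1 of 12 libraries nearest to its own number). The spread within groups was small and may be technical, so these correlations cannot show whether same-numbered libraries share a culture. With the replicate block the counts of members called were 9, 8, 7, 7 and 1, and all 50 calls were as without it. DNMT3A, with 30 to 230 reads per library, is the member that depth limits most.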
